A study of Mus musculus with 12 samples.

Results

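The genes of purine signaling described here are 10 genes chosen by name, out of the 31208 genes in the table, and all 10 were found in it. They are the adenosine receptors Adora1 and Adora2b, the ectonucleotidases Entpd1 and Nt5e, adenosine kinase (Adk), the nucleoside transporter Slc29a1, the ATP-gated channels P2rx4 and P2rx7, and the nucleotide receptors P2ry1 and P2ry6. RNA was read from the brain of 12 male C57BL/6 mice aged 8 weeks, with 4 mice in each of 3 groups. Sham mice had no ischemia, and the labels name no injection for them. Vehicle mice received saline into a cerebral ventricle the day before the left middle cerebral artery was blocked by a filament (MCAO), and their brains were taken at 6 h of ischemia. Lactate mice received lactate by the same route before the same surgery. The labels do not say which form of lactate was given, and the study's methods give D-lactate for the sequenced mice. PCR-amplified full-length cDNA was sequenced on a nanopore device. The deposited table gives reads counted per gene and the same counts scaled to the library total (CPM).

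Cells release ATP and other nucleotides, which act on 2 receptor families, the P2X channels and the P2Y receptors. Ectonucleotidases on the cell surface then cut ATP and ADP to AMP, and AMP to adenosine. Adenosine acts on its own receptors until nucleoside transporters carry it into cells, where adenosine kinase turns it back into AMP. In the ischemic brain, extracellular ATP and adenosine are known to rise as energy stores fail. Microglia, the resident immune cells of the brain, sense nucleotides through several P2Y receptors.

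Each mouse had between 6815920 and 10677224 counts, so that 3 counts, taken here as the smallest level told from 0, correspond to between 0.281 and 0.440 CPM. Markers of neurons, astrocytes and oligodendrocytes were present in all mice. Of the vehicle mice, 2 stood apart from their group. Vehicle mouse 1, the deepest library, had a summed neuron marker level of 5887 CPM against 3964 to 4253 in the other vehicle mice. Vehicle mouse 2 had a summed choroid plexus marker level of 1841 CPM, against 4.26 to 14.7 in the other vehicle mice. Blood markers summed to 560 to 633 CPM in sham mice and were lower in every vehicle mouse (333 to 500.4 CPM) and every lactate mouse (375 to 499 CPM). Striatal projection neuron markers summed to 433 to 685 CPM in sham, 284 to 884 CPM in vehicle and 759 to 864 CPM in lactate mice, so that every lactate mouse lay above every sham mouse. Lactate mice also lay entirely below sham mice in neuron markers (4079 to 4728 against 4843 to 5126 CPM), and entirely above them in endothelial cell markers (174 to 222 against 155 to 161 CPM) and choroid plexus markers (10.3 to 19.2 against 1.36 to 5.41 CPM), as well as in the 3 immune cell sums given further on. The markers of a sum did not all move alike. Of the endothelial cell markers, only Ly6c1 lay entirely above sham (107 to 164 against 70.6 to 79.1 CPM). Slco1a4 lay entirely below sham (5.39 to 12.9 against 22.2 to 36.5 CPM). Of the striatal projection neuron markers, only Ppp1r1b did not overlap (384.5 to 511 against 235 to 341 CPM). In lactate mice Ttr held most of the choroid plexus sum (7.78 to 16.2 CPM). Each of the 8 neuron markers overlapped. The part of these shifts in the comparisons with sham was not tested. Levels are from whole tissue, where fewer cells of a type and less RNA per cell cannot be told apart.

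The first question was how each gene differed between ischemic mice with vehicle and sham mice, the second how lactate mice differed from sham mice, and the third how lactate mice differed from vehicle mice. A gene was tested if 4 or more of the 8 mice compared had a CPM of 1 or higher, and called if its adjusted p (edgeR quasi-likelihood test, Benjamini-Hochberg over all genes tested) was under 0.05. Against sham, both comparisons use the same 4 sham mice. With vehicle, 0 of the 8 tested genes of the set were called, where 1.47% of all 17019 genes tested were called. By unadjusted p under 0.05, 1 of these 8 genes passed (Entpd1), also at a fold change of 1.5 or more, where 9.52% of all genes tested did so, and DESeq2 and limma voom called 0. Without vehicle mouse 1 or vehicle mouse 2, edgeR again called 0 of the set. With lactate, 1 of the 9 tested genes was called (P2ry6), where 12.3% of all 17262 genes tested were called. P2ry6 was tested only because the lactate mice, where it is high, brought it past the filter, so this call and its lack of overlap below are no support for the set. Between lactate and vehicle mice, 0 of 9 genes were called, by edgeR, DESeq2 and limma voom alike, 0 of 9 had an unadjusted p under 0.05, and 0.00574% of all 17419 genes tested were called (6.23% at an unadjusted p under 0.05 with a fold change of 1.5 or more). The 4 mice of one group lay entirely above the 4 of the other for 2 of the 9 genes with lactate against sham (Entpd1 and P2ry6), where 10.4% of all genes tested did so, and entirely below for 0 of the 9, where 8.74% did. With vehicle against sham, 0 of the 8 genes lay entirely above or below, against 4.14% and 4.89% of all genes. For lactate against vehicle this held for 0 of the 9, against 2.99% and 1.83%. The median log2 fold change over the tested genes of the set was 0.04 with vehicle against sham (0.00 over all genes), 0.21 with lactate against sham (-0.03 over all genes) and 0.02 between lactate and vehicle (-0.03 over all genes). P2ry1 passed the filter in none of the 3 comparisons, and P2ry6 did not pass it with vehicle against sham.

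**Figure D1:**
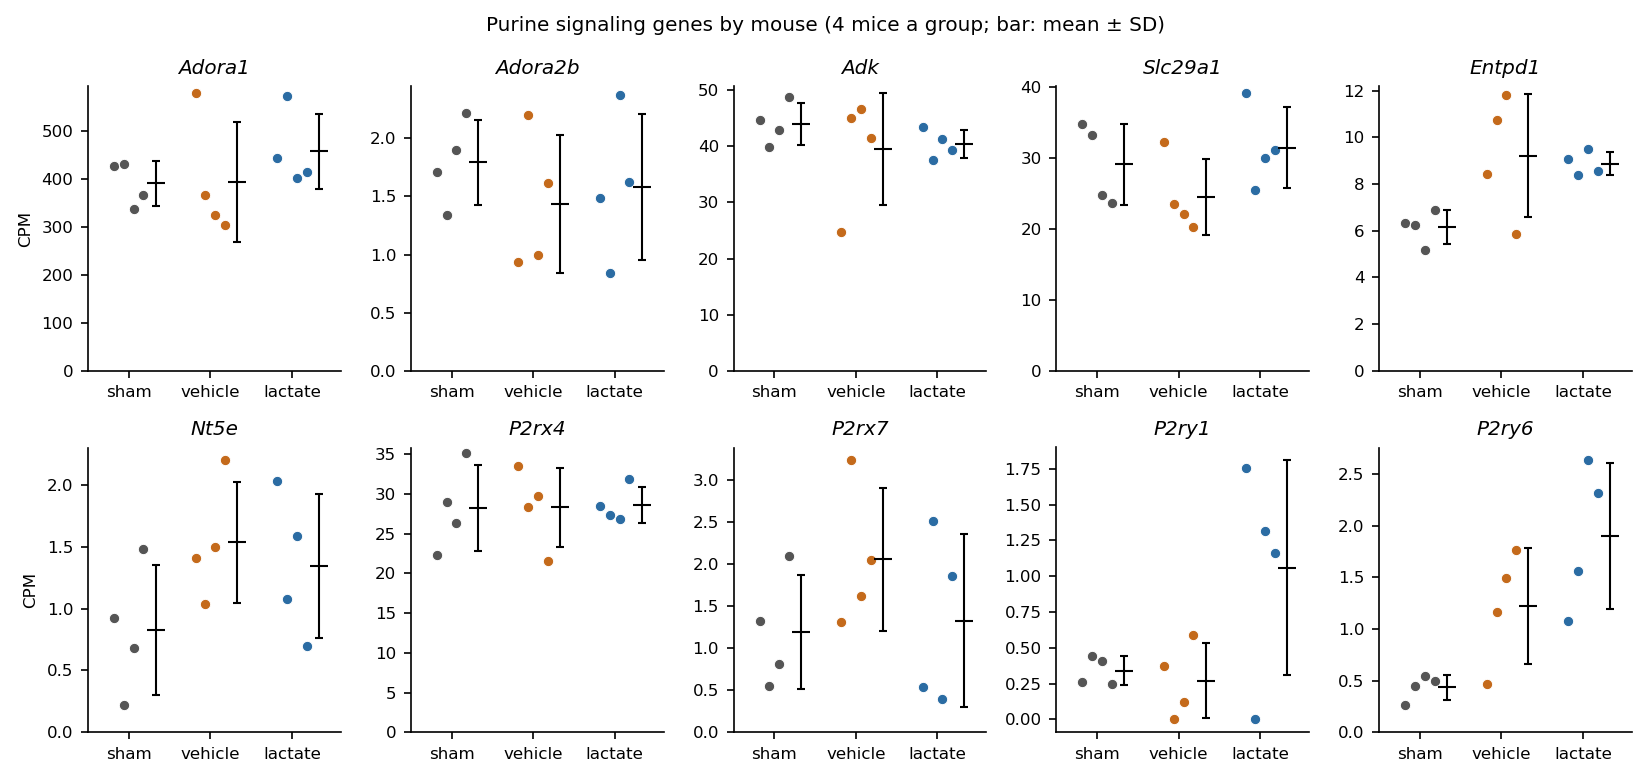
CPM of each of the 10 genes in every mouse (points, in the order of mouse number within a group), with the group mean ± SD (bar, n = 4); the vertical scale differs between panels and starts at 0 or just below it. P2ry6 in lactate mice (1.08 to 2.64 CPM) lies above all sham mice (0.264 to 0.543 CPM), and Entpd1 in lactate mice (8.38 to 9.49 CPM) above all sham mice (5.16 to 6.91 CPM).

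Entpd1 is the ectonucleotidase that cuts ATP and ADP to AMP, and it lies on chr19:40612366-40741602 (GRCm38, plus strand). Its level was 6.33, 6.24, 5.16 and 6.91 CPM in sham mice 1 to 4. In vehicle mice it was 8.43, 10.7, 11.8 and 5.87 CPM, and in lactate mice 9.06, 8.38, 9.49 and 8.58 CPM. All 4 lactate mice and 3 of 4 vehicle mice lay above the highest sham mouse, and vehicle mouse 4 lay within the sham range. The lactate and vehicle means were close (8.88 ± 0.499 and 9.22 ± 2.65 CPM, SD, n = 4 each), while the vehicle mice spread much more widely. Against sham (6.16 ± 0.729 CPM), the log2 fold change was 0.61 (SE 0.24) with vehicle, with an unadjusted p of 0.0257 and an adjusted p of 0.286 (edgeR). With lactate it was 0.55 (SE 0.18, 95% interval 0.17 to 0.94), with an unadjusted p of 0.0084 and an adjusted p of 0.0613, so it was not called. Its call changed with the test, since limma voom with sample quality weights gave 0.60 and an adjusted p of 0.0411, and the adjusted p ranged from 0.0411 to 0.161 over 17 alternatives. Lactate and vehicle mice differed by -0.08 (SE 0.23, 95% interval -0.58 to 0.42).

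The upstream sequence of Entpd1 is shown because Entpd1 had the lowest unadjusted p among the 8 genes of the set tested with vehicle. It is the 250 bases before the first of the 2 RefSeq starts of Entpd1 on the plus strand of GRCm38.p6, chr19:40612116-40612365, where the annotated gene begins, and none of the 4 motifs listed further on occurs in it.
Entpd1: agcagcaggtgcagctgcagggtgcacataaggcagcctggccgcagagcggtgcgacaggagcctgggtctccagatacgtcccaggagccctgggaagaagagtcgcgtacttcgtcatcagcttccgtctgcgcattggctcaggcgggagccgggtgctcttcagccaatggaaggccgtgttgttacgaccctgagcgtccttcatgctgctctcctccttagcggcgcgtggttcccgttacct

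Entpd1 and S100a8 and S100a9, calcium-binding proteins abundant in neutrophils, were high in the same mice. The 9 neutrophil markers summed to between 3.23 and 5.41 CPM in sham mice, 12.03 and 75.2 CPM in vehicle mice and 19.6 and 42.6 CPM in lactate mice. Camp, Elane and Ly6g were at 0 in all sham mice, and Elane was at 0 in all 12 mice. S100a8 and S100a9 made up most of the sum in the ischemic mice (7.92 to 65.7 CPM in vehicle and 15.1 to 36.1 CPM in lactate mice), while the other 7 markers summed to 2.79 to 3.21 CPM in sham, 4.11 to 9.46 CPM in vehicle and 4.52 to 6.46 CPM in lactate mice. Retnlg had 4, 0, 0 and 0 counts in sham mice, 7, 41, 45 and 5 in vehicle mice and 25, 34, 27 and 10 in lactate mice, and was called higher with lactate (adjusted p = 0.00236, edgeR), having passed the filter only through the lactate mice. Cxcr2 gave a log2 fold change of 0.38 (adjusted p = 0.541) with vehicle and -0.28 (adjusted p = 0.626) with lactate against sham. Within vehicle mice, Entpd1 was highest in mice 3 and 2, where the neutrophil sum was also highest (75.2 and 55.4 CPM), and lowest in mouse 4, where the sum was lowest. Over the 12 mice, with group means removed on a log2(CPM + 1) scale, the correlation was 0.872, and 0.919 over the 11 mice without vehicle mouse 1. Over those 11 mice it was also above 0.5 with 5 other sums, those of 8 immune response genes (0.757), monocyte and macrophage markers (0.659), oligodendrocyte markers (0.604), striatal projection neuron markers (0.589) and choroid plexus markers (0.523). These points share the scaling to library totals, and the part of RNA from these cells in the level of Entpd1 was not tested. By the same measure, the genes closest to Entpd1 among 8797 were Ciao2b (r = 0.907), the neutrophil gene S100a9 (0.895) and Avpi1 (0.889).

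**Figure D2:**
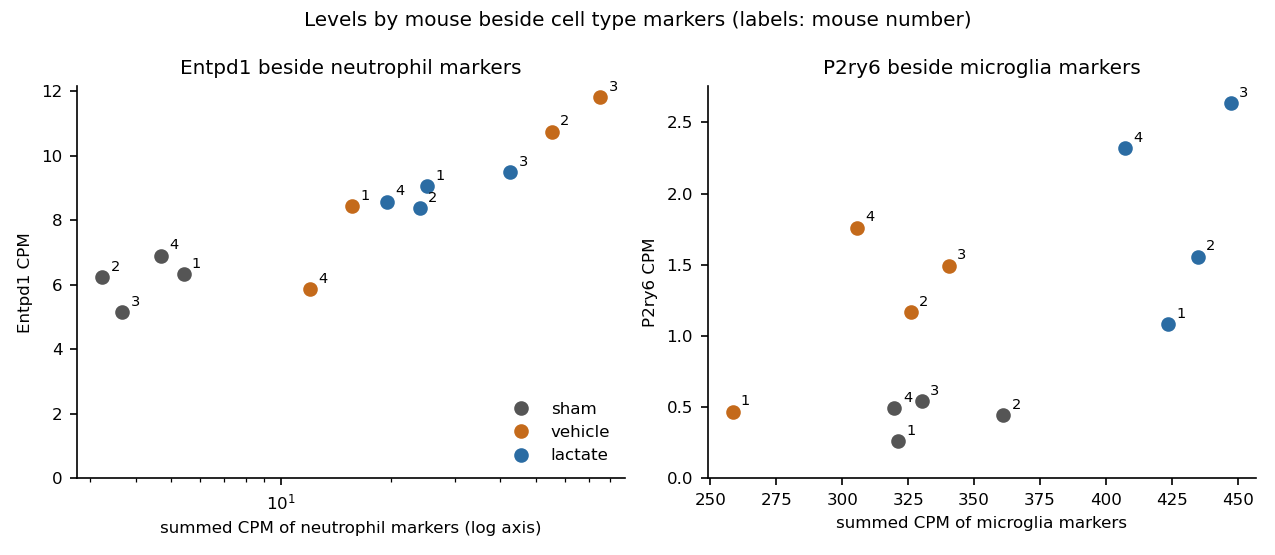
Left, Entpd1 CPM against the summed CPM of 9 neutrophil markers on a log axis; right, P2ry6 CPM against the summed CPM of 11 microglia markers; each point is 1 mouse with its number. Vehicle mice 2 and 3 hold both the highest neutrophil sums (55.4 and 75.2 CPM) and the highest Entpd1 levels, and all 4 lactate mice lie at a microglia sum of 407 CPM or more, which falls to between 236 and 262 CPM without C1qa and C1qb.

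Nt5e, the ectonucleotidase that makes adenosine from AMP, was measured from few reads, 26 counts over the 4 sham mice, 50 over the vehicle mice and 42 over the lactate mice. Its level was 0.923, 0.223, 0.679 and 1.48 CPM in sham mice, 1.41, 1.04, 1.49 and 2.20 CPM in vehicle mice, and 2.03, 1.08, 1.58 and 0.696 CPM in lactate mice. The groups overlapped in every comparison. Against sham, Nt5e gave a log2 fold change of 0.92 (SE 0.47, 95% interval -0.10 to 1.94) with vehicle and of 0.72 (SE 0.50, 95% interval -0.34 to 1.79) with lactate, with adjusted p of 0.421 and 0.38 (edgeR). The value with vehicle moved to 0.60 without sham mouse 2 and 1.38 without sham mouse 4, and that with lactate to 0.39 without sham mouse 2. Both intervals include 0 and also a rise of more than 1.5-fold. Lactate and vehicle mice differed by -0.21 (SE 0.40). The 4 sham mice held 1 mouse with a CPM of at least 1, so Nt5e passed the filter against sham mainly through the ischemic mice.

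P2ry6 is a receptor for UDP that is known in microglia for its part in phagocytosis, and it lies on chr7:100937630-100974649 (minus strand). Its counts were 2, 4, 4 and 4 in sham mice, 5, 9, 12 and 12 in vehicle mice, and 8, 13, 20 and 20 in lactate mice. As levels, these were 0.264, 0.446, 0.543 and 0.493 CPM in sham, 0.468, 1.17, 1.49 and 1.76 CPM in vehicle, and 1.08, 1.56, 2.64 and 2.32 CPM in lactate. Every lactate mouse lay above every sham mouse, and vehicle mouse 1 alone among the vehicle mice lay within the sham range. The log2 fold change with lactate against sham was 2.11 (SE 0.41, adjusted p = 0.00613, edgeR), a fold of 4.32 with a 95% interval of 2.32 to 8.02. P2ry6 reached a CPM of 1 in 4 lactate mice and 0 sham mice, so it passed the filter only through the lactate mice, and a gene that enters the test in that way has to differ. Without any filter, the log2 fold change was 2.06 (SE 0.45, adjusted p = 0.00762). With that setting it ranged from 1.87 to 2.24 as each of the 8 mice was left out in turn, and it was called each time.

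With vehicle against sham, P2ry6 had 3 vehicle mice and 0 sham mice at a CPM of at least 1, and was not tested with the filter. Mean levels were 1.22 ± 0.558 CPM in vehicle and 0.436 ± 0.122 CPM in sham mice (SD, n = 4 each), a difference of 0.786 CPM. A two-sided exact permutation test over the 8 mice gave p = 0.0857, and 0.19 adjusted over the 4 such tests run, where the smallest p this design allows is 0.0286. The fit without a filter gave a log2 fold change of 1.44 (SE 0.53, adjusted p = 0.259, edgeR). Lactate and vehicle mice differed by 0.65 (SE 0.44, 95% interval -0.30 to 1.61, adjusted p = 0.692), so P2ry6 was called against sham with lactate, and its difference between the ischemic groups was not resolved.

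Microglia markers were set beside P2ry6 and did not move as 1 group. The 11 markers summed to between 320 and 361 CPM in sham mice, 258 and 340 CPM in vehicle mice, and 407 and 447 CPM in lactate mice, where no lactate mouse overlapped either other group. That separation came from the complement genes C1qa and C1qb, since the other 9 markers summed to 254 to 272 CPM in sham, 157 to 243 CPM in vehicle and 236 to 262 CPM in lactate mice, and sham and lactate overlapped. None of the 11 was at 0 in any group. Of these markers, C1qa and C1qb were called higher and P2ry12 lower with lactate against sham, while C1qb was called higher and Cx3cr1 and P2ry12 lower with vehicle. Monocyte and macrophage markers summed to 8.57 to 11.6 CPM in sham, 9.74 to 20.98 CPM in vehicle and 14.3 to 23.8 CPM in lactate mice. In vehicle mice P2ry6 was higher than in sham in 3 of 4 mice. The sum of the 9 microglia markers without C1qa and C1qb includes P2ry12 (17.6 to 32.4 CPM in vehicle, 41.0 to 52.9 CPM in sham mice). Cx3cr1 and Siglech also lay entirely below sham in vehicle mice, and the other tested markers of the 9 overlapped. Within groups, the correlation of P2ry6 with the microglia sum was 0.547 over 12 mice and 0.014 over the 11 mice without vehicle mouse 1, so it rested on that mouse. With the monocyte and macrophage sum the correlation was 0.604 over 12 mice and 0.329 over those 11. The largest over those 11 mice were -0.915 with blood markers and 0.641 with neuron markers. The part of microglia number in the level of P2ry6 was not tested.

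P2ry1, a receptor for ADP, was near the limit of detection. Its counts were 2, 4, 3 and 2 in sham mice, 4, 0, 1 and 4 in vehicle mice, and 13, 0, 10 and 10 in lactate mice. Of the lactate mice, 3 held at least 10 counts, at 1.76, 1.32 and 1.16 CPM, and lactate mouse 2 held 0, which allows a level of up to 0.359 CPM. Mean levels were 0.341 ± 0.101 CPM in sham, 0.272 ± 0.262 CPM in vehicle and 1.06 ± 0.750 CPM in lactate mice (SD, n = 4 each). The two-sided exact permutation test gave p = 0.143 for lactate against sham, 0.143 for lactate against vehicle and 0.657 for vehicle against sham, or 0.19, 0.19 and 0.657 adjusted over the 4 tests. The gene overlaps an annotated antisense RNA, Gm37035, and the sources used here do not say whether counting used strand.

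P2rx7, an ATP-gated channel known for triggering inflammasome activation, was also read at low depth, with 3 to 25 counts per mouse. Its level was 1.32, 0.557, 0.815 and 2.10 CPM in sham mice, 1.31, 3.24, 1.62 and 2.05 CPM in vehicle mice, and 0.541, 2.51, 0.396 and 1.86 CPM in lactate mice. Lactate mice fell into a high and a low pair, mice 2 and 4 at or above 1.86 CPM and mice 1 and 3 at or below 0.541 CPM. P2rx7 gave a log2 fold change of 0.80 (SE 0.44, adjusted p = 0.463) with vehicle against sham, 0.21 (SE 0.55, adjusted p = 0.849) with lactate against sham and -0.61 (SE 0.53, adjusted p = 0.764) with lactate against vehicle (edgeR). The intervals were wide, from -0.16 to 1.76, from -0.98 to 1.41 and from -1.77 to 0.55, and each of them includes both 0 and a 1.5-fold difference. Single mice moved these values, that with vehicle against sham from 0.50 (without vehicle mouse 2) to 1.23 (without sham mouse 4), and that with lactate against vehicle from -1.10 (without lactate mouse 2) to -0.30 (without vehicle mouse 2).

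P2rx4, a second ATP-gated channel, lies beside P2rx7 on chromosome 5 and gave far more reads per mouse. Its level was 22.3, 29.0, 26.3 and 35.2 CPM in sham mice, 33.5, 28.4, 29.8 and 21.6 CPM in vehicle mice, and 28.5, 27.3, 26.9 and 31.9 CPM in lactate mice. The means were 28.2 ± 5.40, 28.3 ± 4.99 and 28.7 ± 2.26 CPM (SD, n = 4 each), and all groups overlapped. P2rx4 gave a log2 fold change of 0.04 (95% interval -0.37 to 0.45) with vehicle and 0.05 (95% interval -0.29 to 0.39) with lactate against sham, and -0.01 (95% interval -0.37 to 0.36) between lactate and vehicle. All 3 intervals lie within a fold of 1.5 in either direction.

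Immune response genes that act downstream of or beside these channels were set next to them. Of 8 such genes (Il1b, Tnf, Ccl2, Ccl3, Ccl4, Nlrp3, Casp1 and Ptgs2), the summed level was 4.75 to 6.54 CPM in sham mice, 8.90 to 111 CPM in vehicle mice and 14.2 to 47.1 CPM in lactate mice. Ccl2, a chemokine that draws monocytes, had 0 or 1 count in each sham mouse, 10 to 44 in vehicle mice and 9 to 33 in lactate mice, and was called higher in both comparisons with sham (adjusted p of 0.00249 and 0.000238, edgeR), though it passed the filter only through the ischemic mice. Ptgs2, which makes prostaglandins, gave a log2 fold change of 3.19 (SE 0.72, adjusted p = 0.0491) with vehicle against sham, a call lost without any 1 sham mouse or without vehicle mouse 2 or 3 (adjusted p up to 0.167). With lactate it gave 1.94 (SE 0.42, adjusted p = 0.0105), a call lost with all 12 mice in 1 fit (adjusted p = 0.117). Il1b, Tnf, Nlrp3 and Casp1 did not pass the filter in any comparison, and Ccl3 and Ccl4 did not pass it against sham.

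Adora1, the inhibitory adenosine receptor of neurons, lies on chr1:134199223-134235431 (minus strand). Its level was 428, 432, 337 and 368 CPM in sham mice, 579, 368, 326 and 306 CPM in vehicle mice, and 445, 573, 402 and 415 CPM in lactate mice. Vehicle mouse 1 was the highest of all 12 mice, while vehicle mice 3 and 4 were the lowest. The log2 fold change was 0.05 (SE 0.19, adjusted p = 0.94) with vehicle and 0.26 (SE 0.13, unadjusted p = 0.0587, adjusted p = 0.204) with lactate against sham (edgeR). Without vehicle mouse 1, the value with vehicle turned to -0.20 (adjusted p = 0.433), so its direction rested on that mouse. For lactate against vehicle the value was 0.19 (SE 0.20, adjusted p = 0.808), and 0.45 (adjusted p = 0.385) without vehicle mouse 1.

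Reads of Adora1 may be shared with a neighbour. Adora1 overlaps Mybph, which lies on the opposite strand, over 2010 bases at chr1:134199223-134201232, which is the downstream end of both genes. In each mouse, the count of Mybph was between 7.39 and 12.1% of that of Adora1, and Mybph was among the 3 genes closest to Adora1 in their deviations from the group means (r = 0.941 over 12 mice, 0.834 over 11 without vehicle mouse 1), after Bicd2 (0.971) and Gnl1 (0.969). With the counts of Adora1 and Mybph summed, an alternative chosen after seeing the data, the log2 fold changes were 0.03 with vehicle and 0.23 with lactate against sham, and 0.19 between lactate and vehicle.

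The upstream sequence of Adora1 is shown because it holds 2 of the 4 motifs searched. It is the 250 bases before the more distal of the RefSeq starts, on the minus strand at chr1:134235458-134235707 of GRCm38.p6. The capitals mark a match to ACGTG, the core of the hypoxia response element, read on the other strand, and TGAATCA. The latter matches TGANTCA, the string searched for AP-1, in which N stands for any base.
Adora1: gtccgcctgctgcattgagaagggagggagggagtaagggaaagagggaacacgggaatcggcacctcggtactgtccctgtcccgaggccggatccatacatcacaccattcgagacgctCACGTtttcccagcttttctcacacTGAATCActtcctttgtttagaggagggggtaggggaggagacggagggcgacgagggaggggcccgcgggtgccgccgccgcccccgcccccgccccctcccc

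Motifs were searched on both strands in the 250 upstream bases of 20 RefSeq entries for 9 of the 10 genes, P2ry6 having no entry. ACGTG occurred in 4 of the 20 (20%), against 16.6% of all 32851 entries, and these belonged to Adora1 and Slc29a1. The longer CACGTG holds ACGTG on both strands. TGANTCA occurred in 2 of the 20 (10%), against 6.75% of all entries, in Adora1 and P2rx7. The full cyclic AMP response element TGACGTCA occurred in 0 of the 20 (1.55% of all entries), and the STAT motif TTCNNNGAA in 0 of the 20 (7.02% of all entries). A match is a string of letters and is not a measured binding site.

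Adora2b, the adenosine receptor that responds at high adenosine, was read from 7 to 18 counts per mouse. Its level was 1.71, 1.34, 1.90 and 2.22 CPM in sham mice, 0.937, 2.20, 0.996 and 1.61 CPM in vehicle mice, and 1.49, 0.838, 2.37 and 1.62 CPM in lactate mice. All groups overlapped. Adora2b gave a log2 fold change of -0.30 (SE 0.37, adjusted p = 0.778) with vehicle and -0.15 (SE 0.35, adjusted p = 0.822) with lactate against sham, and 0.13 (SE 0.42, adjusted p = 0.951) between lactate and vehicle (edgeR). The interval with vehicle against sham ran from -1.09 to 0.49, which does not separate a fall from no difference.

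Adk, which clears adenosine by phosphorylation and is known mainly from astrocytes in the adult brain, was 44.7, 39.8, 42.9 and 48.7 CPM in sham mice. It was 24.8, 45.1, 46.6 and 41.5 CPM in vehicle mice and 43.4, 37.6, 41.3 and 39.3 CPM in lactate mice. Vehicle mouse 1 was far below the other 11 mice, which lay between 37.6 and 48.7 CPM. The log2 fold change with vehicle against sham was -0.12 (SE 0.19, adjusted p = 0.834), and 0.05 without vehicle mouse 1. With lactate against sham it was -0.09 (SE 0.12, adjusted p = 0.655), and between lactate and vehicle 0.02 (SE 0.19, adjusted p = 0.99). Across mice, Adk fell as the neuron marker sum rose, with a centred correlation of -0.923 over 12 mice that dropped to -0.494 over the 11 mice without vehicle mouse 1. Its closest genes, Mzt1 (r = 0.979), Zfp68 (0.976) and Nap1l2 (0.970), gave 0.847, 0.876 and 0.782 without that mouse.

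Slc29a1, which carries adenosine across the cell membrane in both directions, was 34.7, 33.2, 24.7 and 23.6 CPM in sham mice, 32.2, 23.4, 22.0 and 20.3 CPM in vehicle mice, and 39.1, 25.4, 29.9 and 31.1 CPM in lactate mice. Of the 4 lactate mice, 3 lay within the range of the sham mice and 1 above it. The log2 fold change was -0.21 (SE 0.20, adjusted p = 0.703) with vehicle and 0.14 (SE 0.17, adjusted p = 0.651) with lactate against sham. For lactate against vehicle it was 0.33 (SE 0.20, 95% interval -0.10 to 0.76, adjusted p = 0.656), and 0.51 without vehicle mouse 1 (adjusted p = 0.401, edgeR). Among the closest genes to Slc29a1 were Atraid (r = 0.935) and Babam1 (0.915), and the closest to P2rx4 were Jdp2 (0.873), Acvrl1 (0.868) and Elac2 (0.845), over 12 mice. These correlations are a description over mice that share the scaling to library totals.

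**Figure D3:**
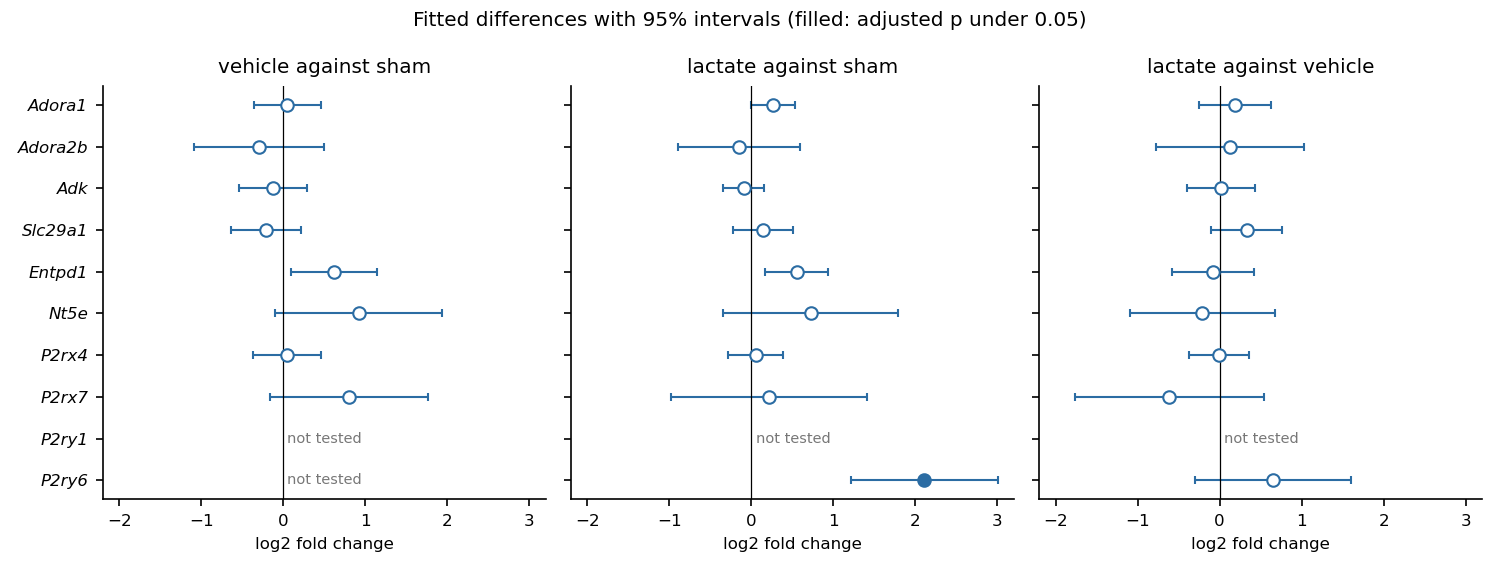
Log2 fold change (points) with its 95% interval (bars) for the genes of the set that were tested in each of the 3 comparisons (8, 9 and 9 of the 10, the others marked as not tested), where filled points have an adjusted p under 0.05. P2ry6 with lactate against sham (2.11, interval 1.22 to 3.00) is the 1 filled point, and the intervals of Entpd1 lie above 0 in both comparisons with sham.

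Beyond these 10 genes, 53 other genes of purine receptors, ectonucleotidases, transporters, nucleotide release and purine enzymes were read from a list chosen by role. With vehicle against sham, 0 of the 32 tested were called higher and 2 lower (P2ry12 and P2ry13), against 1.29% and 0.182% of all genes. With lactate against sham, 5 of the 33 tested were called higher and 4 lower, against 8.76% and 3.55% of all genes. Between lactate and vehicle, 0 of 32 were called by edgeR, DESeq2 or limma voom, where 0.00574% of all genes were called. An unadjusted p under 0.05 was found for 7 of the 32 (8.84% of all genes), and 5 of these 7 also differed by at least 1.5-fold (6.23% of all genes). The median log2 fold change of these other genes was -0.02, -0.06 and 0.04 in the same order, close to the 0.00, -0.03 and -0.03 of all genes.

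Among the P2Y receptors, P2ry12 and P2ry13, the ADP receptors of resting microglia, were called lower in both ischemic groups. P2ry12 was 41.0, 44.6, 44.8 and 52.9 CPM in sham mice, 18.8, 32.4, 20.2 and 17.6 CPM in vehicle mice, and 29.9, 20.1, 15.8 and 17.9 CPM in lactate mice. No ischemic mouse reached the lowest sham mouse. Its log2 fold change was -1.01 (SE 0.20, adjusted p = 0.0275) with vehicle and -1.10 (SE 0.19, adjusted p = 0.00265) with lactate against sham (edgeR). The call with vehicle was lost when any 1 sham mouse, vehicle mouse 3 or vehicle mouse 4 was left out (adjusted p up to 0.112), while the log2 fold change stayed between -1.24 and -0.91. The call with lactate was kept in all 17 alternatives.

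P2ry13 was 4.22, 5.46, 4.75 and 3.95 CPM in sham mice, 0.749, 1.04, 1.24 and 0.880 CPM in vehicle mice, and 2.03, 2.39, 2.24 and 1.74 CPM in lactate mice. The 3 groups did not overlap, with the lactate mice between the other two. The log2 fold change was -2.19 (SE 0.30, adjusted p = 0.00188) with vehicle and -1.10 (SE 0.24, adjusted p = 0.0114) with lactate against sham, and both calls held in all 17 alternatives. Directly between lactate and vehicle it was 1.08 (SE 0.32), with an unadjusted p of 0.00556 and an adjusted p of 0.481, which is not a call. Both genes lie within Med12l, which is on the opposite strand and had 1062 counts over the 12 mice, with log2 fold changes of -0.63 (adjusted p = 0.207) with vehicle and -0.09 (adjusted p = 0.812) with lactate against sham.

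The upstream sequences of P2ry12 and P2ry13, neighbours on chromosome 3, are shown because these are the purine genes called lower in both comparisons. Each is the 250 bases before the RefSeq start on the minus strand of GRCm38.p6, chr3:59262986-59263235 for P2ry12 and chr3:59210883-59211132 for P2ry13. The capitals mark CACGTG, which holds ACGTG on both strands and occurs in P2ry12 but not in the window of P2ry13.
P2ry12: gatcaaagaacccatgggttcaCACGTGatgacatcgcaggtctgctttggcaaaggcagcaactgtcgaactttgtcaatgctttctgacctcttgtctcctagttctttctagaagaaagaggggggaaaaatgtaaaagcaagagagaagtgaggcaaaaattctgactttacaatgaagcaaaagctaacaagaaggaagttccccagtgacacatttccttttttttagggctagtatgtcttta
P2ry13: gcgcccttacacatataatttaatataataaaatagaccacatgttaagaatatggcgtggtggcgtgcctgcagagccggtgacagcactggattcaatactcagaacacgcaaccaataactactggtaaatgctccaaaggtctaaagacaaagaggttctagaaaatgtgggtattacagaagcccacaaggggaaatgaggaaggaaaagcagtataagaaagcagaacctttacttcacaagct

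**Figure D4:**
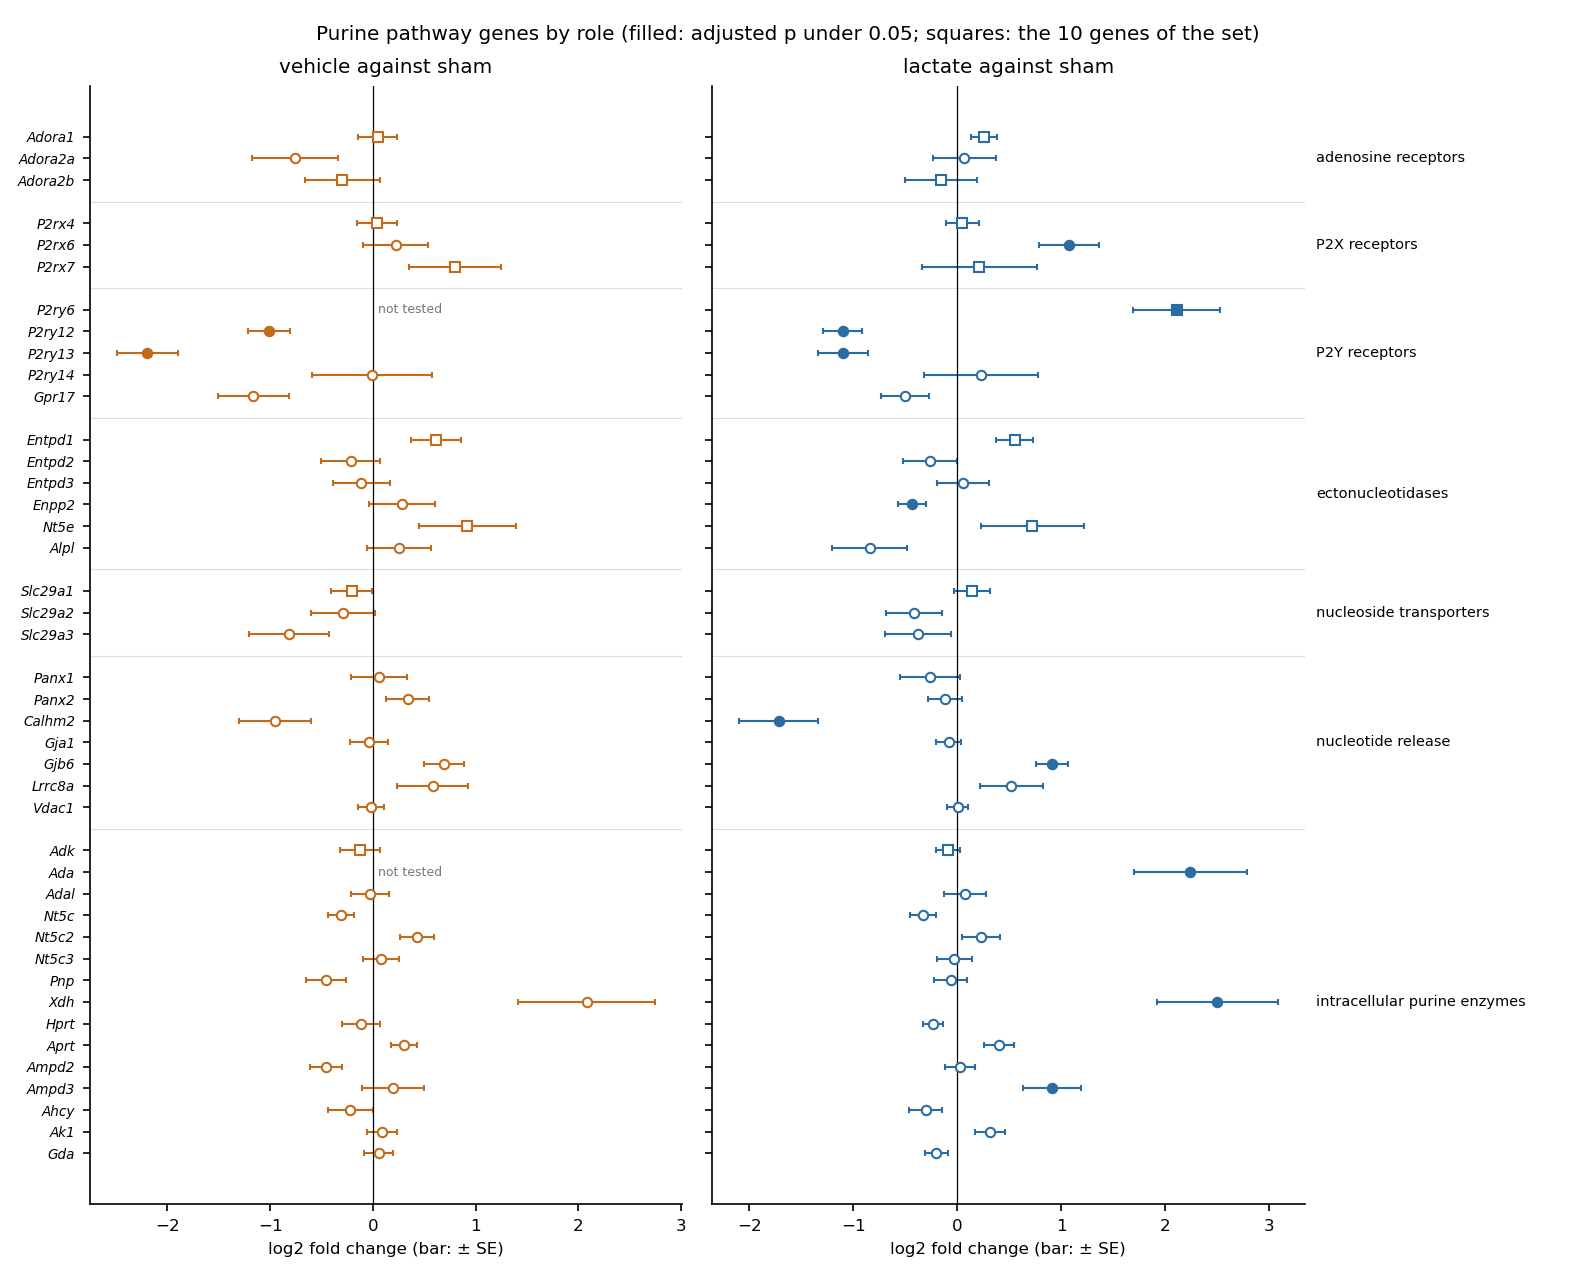
Log2 fold change ± SE of the tested purine pathway genes with vehicle (left) and lactate (right) against sham, grouped by role; filled points have an adjusted p under 0.05, and squares are the 10 genes described first. P2ry12 and P2ry13 are filled on the left and right (-1.01 and -2.19, then -1.10 and -1.10), and P2ry6, Xdh and Ada stand farthest to the right with lactate (2.11, 2.50 and 2.24).

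Of the 15 intracellular purine enzymes tested with lactate against sham, Adk included, 3 were called higher (Xdh, Ada and Ampd3, against 8.76% of all genes), 0 were called lower (against 3.55%) and 12 were not called. Of these 3, Ada passed the filter only through the lactate mice. Xdh passed it mainly through them, with 1 sham mouse at a CPM of at least 1. Among the others that break down purines, Pnp gave -0.06, Gda -0.20, Ampd2 0.03, Adal 0.07 and Nt5c -0.33. Xdh, which makes uric acid, was at 0.527, 0.334, 0 and 2.10 CPM in sham mice, 4.12, 1.94, 1.74 and 4.70 CPM in vehicle mice, and 4.19, 4.67, 2.64 and 5.33 CPM in lactate mice. Its log2 fold change was 2.50 (SE 0.58, adjusted p = 0.014) with lactate and 2.08 (SE 0.67, adjusted p = 0.187) with vehicle against sham, and the 2 were not shown to differ (0.40, SE 0.37, between lactate and vehicle). Sham mouse 4 held 17 of the 24 sham counts, and without it the value was 3.82 (adjusted p = 0.00194) with lactate and 3.40 (adjusted p = 0.0429, a call) with vehicle. No sham mouse left in these fits reached a CPM of 1. Xdh then passed the filter only through the ischemic mice, so these values are no support for a difference. Ada, which turns adenosine into inosine, had 2, 0, 4 and 4 counts in sham mice, 10, 9, 7 and 9 in vehicle mice, and 13, 11, 15 and 9 in lactate mice. It was called higher with lactate (2.24, SE 0.54, adjusted p = 0.0172). Ampd3, which deaminates AMP, gave 0.91 (SE 0.28, adjusted p = 0.0493), a call lost in 7 of 17 alternatives, with library totals alone, with all 12 mice in 1 fit, and without sham mouse 2, 3 or 4 or lactate mouse 1 or 3.

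Genes of nucleotide release and the remaining calls differed in direction. Gjb6, a gap junction protein of astrocytes that also forms hemichannels, was 24.9, 23.3, 22.8 and 32.7 CPM in sham mice, 28.6, 47.7, 43.1 and 44.9 CPM in vehicle mice, and 55.3, 48.1, 49.2 and 38.5 CPM in lactate mice. It rose by 0.91 (SE 0.16, adjusted p = 0.00287) with lactate against sham, a call kept in all 17 alternatives, and gave 0.69 (SE 0.19, adjusted p = 0.123) with vehicle. Gjb6 was called higher with vehicle by DESeq2 (0.70, adjusted p = 0.0355), by limma voom (0.78, adjusted p = 0.0271) and by edgeR without vehicle mouse 1 (0.84, adjusted p = 0.0178). The 9 astrocyte markers, Gjb6 among them, summed to 6277 to 10140 CPM in sham, 9723 to 11600 CPM in vehicle and 9745 to 11580 CPM in lactate mice, which overlapped. Aldoc made up most of this sum (5447 to 9090 CPM in sham, 8686 to 10540 in vehicle and 8604 to 10340 in lactate mice). Of the 9 markers, Gfap was called higher with vehicle (1.64, adjusted p = 0.0201) and with lactate (2.47, adjusted p = 1.99e-06), and Sox9 lower with lactate (-0.73, adjusted p = 0.0394). Their part in the level of Gjb6 was not tested. Calhm2, a channel of the CALHM family, fell by 1.72 (SE 0.38, adjusted p = 0.0112) with lactate, from 11 or 12 counts in each sham mouse to 2 to 4 in each lactate mouse, and it passed the filter only through the sham mice. Enpp2, the secreted enzyme autotaxin, fell by 0.44 (SE 0.13, adjusted p = 0.0485) with lactate, a call lost in 11 of 17 alternatives, which include leaving out any mouse but lactate mouse 4. In vehicle mouse 2, which had the high choroid plexus markers, Enpp2 was at 330 CPM against 84.9 to 131 in the other vehicle mice.

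P2rx6, a P2X receptor subunit, gave 1.08 (SE 0.29, adjusted p = 0.0267) with lactate against sham, and the call was lost without sham mouse 1, 2 or 3 or without lactate mouse 3 (adjusted p up to 0.0863). It overlaps Slc7a4 on the opposite strand, a gene with 18388 counts over the 12 mice, where P2rx6 had 72, 85 and 149 over the sham, vehicle and lactate mice, and Slc7a4 itself was called higher (0.75, SE 0.13, adjusted p = 0.00289). Calhm2 overlaps Pdcd11 and Ampd3 overlaps Rnf141 in the same way, and neither neighbour was called with lactate (0.16, adjusted p = 0.672, and -0.51, adjusted p = 0.0881). How much of each count came from the neighbour was not tested. The list genes that did not pass the filter with lactate against sham were Adora3 among the adenosine receptors, P2rx1, P2rx2, P2rx3 and P2rx5 among the P2X receptors, P2ry2, P2ry4 and P2ry10 among the P2Y receptors, Acpp, Enpp1, Enpp3 and Entpd8 among the ectonucleotidases, Slc28a1, Slc28a2, Slc28a3 and Slc29a4 among the transporters, Calhm1 and Slc17a9 in nucleotide release, and Ampd1 and Nt5c1a among the enzymes.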

How the data were processed

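The authors sequenced PCR-amplified full-length cDNA of 12 brains by nanopore, kept reads with a mean quality of at least 7 and a length of at least 500 bases, removed ribosomal RNA, mapped full-length reads with minimap2 and polished isoforms with pinfish. The authors deposited raw read counts per gene, without normalization, and CPM values, which equal the count over the total of each mouse to within 4.7e-06. The submitters' processing notes name GRCm38 and DESeq 1.10.1. How reads were counted per gene, and whether by strand, is not given in the sources used here. The reads carry no molecular identifiers, so limits from counts cover counting error only. The authors' columns of edgeR P values, fold changes and regulation were not used.

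The genes and lists were chosen with earlier results of these data known. Of the table, 4 lines without a gene were left out, 27 symbols held as dates were restored, and 0 per-sample columns were left unused. The quasi-likelihood test of edgeR 4.0.16 (R 4.3.3) with TMM factors was fitted to the 2 groups of each comparison, over genes for which 4 or more of the 8 mice had a CPM of 1 or higher, and p-values were adjusted by Benjamini-Hochberg over all of them. Standard errors were derived from the F statistic and are approximate. The looser limits were an unadjusted p under 0.05 with a fold change of 1.5 or more. Named genes were all 10 of the set, the genes of the purine list called in any comparison, the genes of that list that did not pass the filter, 8 immune response genes, and for each gene of the set with a median count of at least 50 the 3 genes closest to it across mice, of which 1 is not reported here. Cell type markers served as summed CPM, and the splits of the microglia and neutrophil sums were chosen after seeing the data, as were single markers named beside a sum. Positions are from GENCODE release M21 and upstream sequences from RefSeq (GRCm38.p6), and Acp3 is listed as Acpp. Two-sided exact permutation tests were used for genes left out by the filter. The edgeR fit was tested on simulated data for vehicle against sham. It called 0 of 67 genes changed 1.5-fold, 19 of 67 changed 2-fold and 53 of 66 changed 4-fold, with 3 false calls. A gene that was not called may thus still differ. Alternatives were DESeq2 1.42.0, limma 3.58.1 (voom with quality weights), RLE factors or library totals, a stricter filter or none, all 12 mice in 1 fit, a replicate block, the 22036 genes with Ensembl identifiers alone, and fits without each mouse. Python 3.11.15, pandas 2.3.3, numpy 2.4.6, scipy 1.17.1 and matplotlib 3.10.9 were used.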

Additional observations from a re-analysis of the deposited data

Results flagged for a closer look

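In 6 cases, 1 mouse of a group of 4 lay far from the other 3, by Dixon's ratio of its gap to the range of the group, above Dixon's 95% critical value. In all, 90 groups of mice were examined, 19 genes and the marker sums, and chance gives such a ratio in about 1 in 20 groups. P2rx6 in lactate mice had a ratio of 0.882, with lactate mouse 3 at 6.72 CPM against 3.83 to 4.17 CPM in the others. Calhm2 in sham mice had a ratio of 0.838, with sham mouse 2 at 1.23 CPM against 1.45 to 1.49 CPM, from 11 or 12 counts in each mouse. Ampd3 in sham mice had a ratio of 0.967, with sham mouse 1 at 12.1 CPM against 5.91 to 6.11 CPM. The summed neuron markers in vehicle mice had a ratio of 0.850 through vehicle mouse 1, and the summed choroid plexus markers a ratio of 0.994 through vehicle mouse 2. The summed oligodendrocyte markers in lactate mice had a ratio of 0.858, with lactate mouse 1 at 9911 CPM against 8865 to 9014 CPM. None of the 10 genes of the set had such a mouse in any group.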

How the results depend on the processing

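P2ry6 with lactate against sham was called in all 20 alternatives in which it was tested, with a log2 fold change of 1.87 to 2.24 and an adjusted p of 0.0048 to 0.0266. Of these, 8 join no filter with leaving out a mouse and were chosen after seeing the data. With a filter of at least 10 counts in at least 4 mice, or without any 1 lactate mouse, P2ry6 was not tested, so the genes of the set called fell to 0 (range over left-out mice 0 to 1), and limma voom called 2. With vehicle against sham, 1 gene of the set passed the unadjusted limits.

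Values near 0 changed sign, and none of these was called. With limma voom, Adora1 was -0.08 with vehicle against sham, P2rx7 -0.23 with lactate against sham, and Adk -0.08 and P2rx4 0.05 between lactate and vehicle. P2rx4 between lactate and vehicle was also 0.02 with library totals, 0.01 with the replicate block and 0.03 with Ensembl genes only. Leaving out each mouse once, the ranges with vehicle against sham were -0.20 to 0.16 for Adora1, -0.20 to 0.05 for Adk and -0.07 to 0.17 for P2rx4. With lactate against sham they were -0.40 to 0.07 for Adora2b, -0.06 to 0.18 for P2rx4 and -0.03 to 0.51 for P2rx7. Between lactate and vehicle they were -0.12 to 0.41 for Adora2b, -0.23 to 0.06 for Entpd1, -0.47 to 0.02 for Nt5e, -0.15 to 0.10 for Adk and -0.11 to 0.10 for P2rx4. The cause of these changes was not tested.

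Of all genes, 250 were called with vehicle against sham, 476 with DESeq2, 395 with limma voom, 1620 at the unadjusted limits and 114 to 369 without 1 mouse. With lactate against sham, 2124 were called, 1015 with Ensembl genes only and 1295 to 1934 without 1 mouse. Between lactate and vehicle, 1 was called, 61 with DESeq2, 2 with limma voom, without a filter or with Ensembl genes only, 1085 at the unadjusted limits and 0 to 5 without 1 mouse. Of the purine list with the 10 genes included, 2 were called with vehicle against sham, 4 with DESeq2 (Gjb6 and Gpr17 added), 7 at the unadjusted limits and 1 to 3 without 1 mouse. With lactate against sham 10 were called, and 5 to 10 without 1 mouse, while between lactate and vehicle 5 passed the unadjusted limits and 0 were called.

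The mice share numbers between groups but are different animals, and the correlation of same-numbered mice was -0.149 to 0.16, over 0.1 in 3 of 12 pairs. A mouse matched its own number best in 9 of 24 cases. With the number as a replicate block, 198 genes were called with vehicle against sham, 2283 with lactate against sham and 1 between lactate and vehicle. The block changed no call among the 10 genes.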
